A study of Danio rerio with 34 samples.

Results

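The genes described here make androgens in the testis or mark the Leydig cells that do so. They were chosen by name: 10 gene names covering cholesterol import (star), side-chain cleavage (cyp11a1, cyp11a2), the later enzymes of the route (hsd3b1, hsd3b2, cyp17a1, cyp17a2, cyp11c1, hsd17b3) and the peptide hormone insl3. Matched to the counted Ensembl identifiers with case ignored, 9 of the 10 names were found, and cyp11a2 matched none. The symbol CYP11A1 belonged to 2 identifiers, so 10 identifiers were followed, and all 10 were among the 24053 tested of the 35117 counted. Which of the zebrafish cyp11a genes each of these 2 is was not decided, so cyp11a2 may be among them under the symbol CYP11A1. Symbols are written below as the gene table spells them.

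RNA was measured in whole testis of adult zebrafish, in 3 groups of 6 libraries. The control fish received DMSO, the carrier, and the others PCB126 at 3 nM or at 10 nM, for 24 h. All testes were sampled after 7 days without the compound. PCB126 is a dioxin-like polychlorinated biphenyl, which binds the aryl hydrocarbon receptor. The series calls its replicates biological, but the labels used here do not say whether a library holds 1 fish or several. In whole tissue, fewer cells of a type and less RNA per cell cannot be told apart.

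Leydig cells lie between the seminiferous tubules and make androgens from cholesterol when luteinizing hormone raises cAMP. STAR carries cholesterol into the mitochondrion, CYP11A1 cuts its side chain to give pregnenolone, and the HSD3B, CYP17 and HSD17B enzymes then lead to androstenedione and testosterone. In fish, cyp11c1 adds the oxygen needed for the keto form of testosterone that is the main androgen of male teleosts. Insl3 is the peptide hormone of Leydig cells, and in the zebrafish testis it promotes differentiation of spermatogonia. The same upstream enzymes also serve cortisol synthesis in the interrenal gland, the fish counterpart of the adrenal cortex.

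The libraries held 16.2 to 29.8 M counts each (M, 1000000 counts), with a median of 26.6 M. Germ cell markers summed to 5730 to 9330 CPM (counts per 1000000 counts of the library, after TMM scaling) over all libraries, and Sertoli cell markers to 2310 to 5490 CPM. No identifier of the Leydig, Sertoli or germ cell lists was at 0 counts over a group. On the first principal component of all tested genes, 39.7% of the variance, 5 libraries lay on the positive side: 3 nM replicates 4 and 6 and 10 nM replicates 1, 5 and 6. These 5 are called the libraries apart below. Their mitochondrial share of counts was 3.8% to 7.22%, against 1.68% to 3.56% in the other 13. In 10 nM replicates 1, 5 and 6 the leukocyte markers summed to 1030, 1310 and 484 CPM, against 198 to 468 CPM in the DMSO and 3 nM libraries and 226 to 359 CPM in the other 10 nM libraries.

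At 10 nM, CYP17A1, cyp17a2 and one of the 2 CYP11A1 identifiers fell, to 38.1%, 43.5% and 54.6% of the DMSO level. At 3 nM only cyp17a2 was called lower, at 34.7% of the DMSO level. CYP17A1 and the same CYP11A1 identifier stood at 53.9% and 59.8% there and were not called. At an unadjusted p under 0.05 by edgeR, 4 members were lower at 10 nM and 3 at 3 nM. In either direction, 7930 of the 24053 tested genes had such a p at 10 nM and 3417 at 3 nM. No member was called higher at either concentration by edgeR or DESeq2, and at an unadjusted p under 0.05 only cyp11c1 was higher, at 10 nM and 1.35 times the DMSO level. Each gene was tested with edgeR's quasi-likelihood test in one fit of all 18 libraries, two-sided, with Benjamini-Hochberg adjustment over the 24053 genes and a call at an adjusted p under 0.05. The 3 of 10 members called lower at 10 nM stand beside 3.44% of all tested genes called lower, and 7.4% called higher, in that comparison. At 3 nM the 1 of 10 stands beside 0.079% called lower and 0.208% called in either direction. The median log2 fold change of the 10 members was -0.42 at 10 nM and -0.53 at 3 nM, where the median over all tested genes was 0.06 and 0.02. Both comparisons use the same DMSO libraries. Without the 5 libraries apart, a setting chosen after seeing the data, 1 of 10 members was called lower at 10 nM and 1 at 3 nM, in both cases CYP11A1 (ENSDARG00000092696), beside 0.883% and 0.0977% of the genes tested in that fit called lower. The member medians were then -0.57 and -0.54, and those of all its genes -0.01 and -0.008. The 5 libraries apart are all exposed and were picked from the same expression values. This setting therefore drops exposed libraries by their own values and no control. A smaller change or a lost call in it cannot be told from an effect of that choice.

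**Figure D1:**
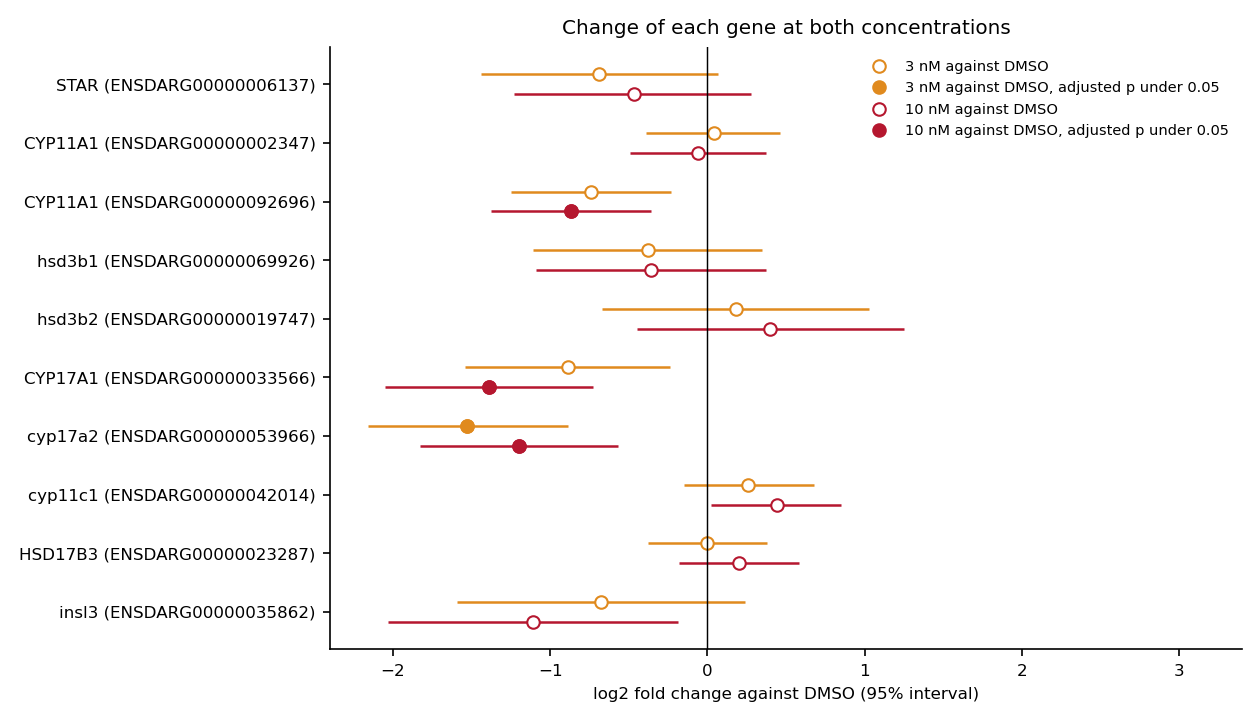
Fitted log2 fold change against DMSO (x axis) of each of the 10 identifiers at 3 nM (orange) and 10 nM (red), with 95% intervals as bars and filled points where the adjusted p was under 0.05. The 3 filled points at 10 nM and the 1 filled point at 3 nM all lie below 0, and the points of cyp11c1 and hsd3b2 lie above 0 at both concentrations.

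STAR, which brings cholesterol to the inner mitochondrial membrane, ranged from 210 to 493 CPM in the DMSO libraries, with a median of 272 CPM. In the 3 nM libraries it ranged from 80.9 to 237 CPM (median 221 CPM), and in the 10 nM libraries from 130 to 580 CPM (median 157 CPM). The groups overlapped: 4 of the 6 10 nM libraries were below the lowest DMSO library, while 10 nM replicate 1 was above the highest. The log2 fold change was -0.47 at 10 nM (SE 0.36, 95% interval -1.23 to 0.28, adjusted p = 0.357) and -0.69 at 3 nM (SE 0.36, adjusted p = 0.385), so neither passed edgeR's test. One library decided the value at 10 nM: without 10 nM replicate 1 the log2 fold change was -1.01 with an adjusted p of 0.0474.

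That library also held markers of interrenal tissue. cyp21a2, the steroid hydroxylase of the cortisol route, had 316 counts (16.9 CPM) in 10 nM replicate 1, and no other library exceeded 25 counts or 0.948 CPM. mrap, the accessory protein of the corticotropin receptor, had 235 counts there and at most 12 elsewhere. The receptor itself, mc2r, stood at 8.98 CPM there, inside the 3.91 to 9.97 CPM of the other libraries. Summed over the 3 interrenal markers, this library reached 38.4 CPM, against 4.68 to 10.8 CPM in the other 17. It was the highest 10 nM library for 4 of the 10 members, and for 20.2% of all tested genes. The 4 were STAR, both CYP11A1 identifiers (30.3 CPM for ENSDARG00000092696 and 11.7 CPM for ENSDARG00000002347) and HSD17B3 (7.06 CPM). CYP17A1 there was 23.2 CPM and hsd3b1 18.7 CPM, below the lowest DMSO library for each. cyp11c1 was 129 CPM, inside the 113 to 140 CPM of the 10 nM group. The part of interrenal tissue in the STAR value was not tested.

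**Figure D2:**
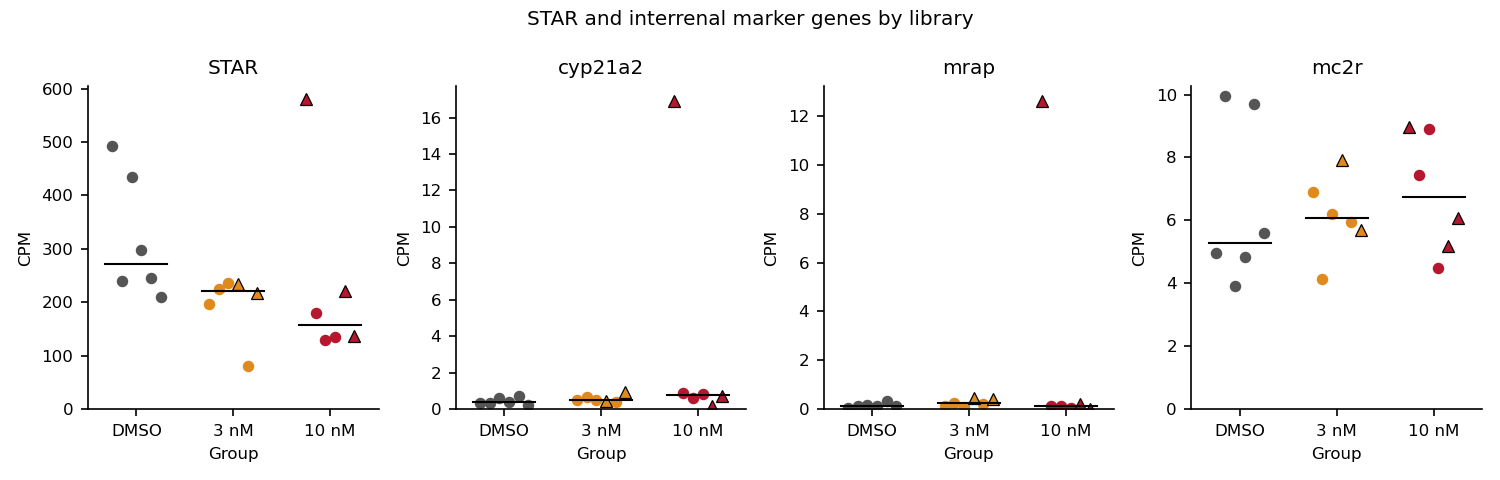
CPM (y axes, linear and from 0) of STAR and of the interrenal markers cyp21a2, mrap and mc2r in each of the 18 libraries, by group, with black bars at the group medians and triangles for the libraries apart. 10 nM replicate 1 is the highest library for STAR (580 CPM), cyp21a2 (16.9 CPM) and mrap (12.6 CPM), and lies within the range of the others for mc2r.

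Of the 2 identifiers of CYP11A1, the side-chain cleavage enzyme, 1 passed the test at 10 nM. ENSDARG00000092696 ranged from 25.3 to 44.8 CPM in the DMSO libraries (median 29.1), from 11.3 to 26.9 CPM at 3 nM (median 18.7) and from 9.7 to 30.3 CPM at 10 nM (median 15.7). At each concentration 5 of 6 libraries were below the lowest DMSO library, and the groups overlapped by 1 library. It fell at 10 nM, with a log2 fold change of -0.87 (SE 0.24, 95% interval -1.38 to -0.36, adjusted p = 0.0324 by edgeR). At 3 nM the value was -0.74 (SE 0.24), with an unadjusted p of 0.00654 and an adjusted p of 0.231. The call at 10 nM was lost without any one of DMSO replicates 1, 2, 3 and 6 or of 10 nM replicates 5 and 6 (adjusted p 0.0523 to 0.0705), while the log2 fold change stayed between -1.11 and -0.75. Without the 5 libraries apart it was -0.96 at 10 nM (adjusted p = 0.0327) and -0.97 at 3 nM (adjusted p = 0.0478).

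ENSDARG00000002347 ranged from 6.45 to 11.7 CPM in the DMSO libraries (median 8.1), from 6.63 to 11.3 CPM at 3 nM (median 8.8) and from 6.68 to 11.7 CPM at 10 nM (median 7.21). The 3 groups covered nearly the same range. Its log2 fold change was -0.06 at 10 nM (95% interval -0.49 to 0.37, adjusted p = 0.852) and 0.04 at 3 nM (95% interval -0.39 to 0.46, adjusted p = 0.936). The difference between the 2 identifiers' changes was not tested. A RefSeq gene table on another assembly, GRCz12tu, lists a pair of neighbouring genes of this name, so reads shared between the copies may have been lost or split in the authors' counting, and both values carry that uncertainty.

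The HSD3B enzymes, which turn pregnenolone into progesterone, did not pass the test at either concentration. hsd3b1 ranged from 21.5 to 71.5 CPM in the DMSO libraries (median 35.5), from 16 to 47.1 CPM at 3 nM (median 30.9) and from 12.6 to 47.7 CPM at 10 nM (median 29.5). Its 10 nM libraries split: the libraries apart were all below the lowest DMSO library and the other 10 nM libraries lay above the DMSO median. The log2 fold change of hsd3b1 was -0.36 at 10 nM (SE 0.35, adjusted p = 0.475) and -0.38 at 3 nM (adjusted p = 0.586), and without the libraries apart it was 0.15 at 10 nM. hsd3b2 was a low gene, with 11 to 110 counts per library, and ranged from 0.602 to 3.35 CPM in DMSO (median 1.23), from 0.944 to 2.69 CPM at 3 nM (median 1.53) and from 0.802 to 3.16 CPM at 10 nM (median 1.91). Its groups overlapped throughout, and its log2 fold change was 0.4 at 10 nM (SE 0.41, adjusted p = 0.501) and 0.18 at 3 nM (adjusted p = 0.835). The RefSeq table gives hsd3b1 as another name of hsd3b2, whereas the counted genes carry the names on separate identifiers.

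CYP17A1, whose hydroxylase and lyase activities commit the route to androgens, fell most among the members called at 10 nM. It ranged from 55 to 163 CPM in the DMSO libraries (median 92.3), from 30.7 to 64.7 CPM at 3 nM (median 56.7) and from 22.8 to 61.7 CPM at 10 nM (median 27.9). All 6 libraries of each concentration were below the DMSO median, and 4 of 6 at 10 nM and 2 of 6 at 3 nM were below the lowest DMSO library. The mean was 98.4 ± 42.7 CPM (SD, n = 6) with DMSO, 53 ± 12.3 CPM (SD, n = 6) at 3 nM and 37.4 ± 18.7 CPM (SD, n = 6) at 10 nM. The log2 fold change was -1.39 at 10 nM (SE 0.31, 95% interval -2.05 to -0.73, adjusted p = 0.0147) and -0.89 at 3 nM (SE 0.31, unadjusted p = 0.00984, adjusted p = 0.252) by edgeR. The call at 10 nM held when any one library was left out, with log2 fold changes from -1.59 to -1.19 and adjusted p from 0.00751 to 0.0379. Within the 10 nM group the libraries apart held 23.2, 25.2 and 22.8 CPM and the others 61.7, 60.8 and 30.7 CPM. Without the 5 libraries apart the 10 nM value was -0.96 (SE 0.38, adjusted p = 0.192) and no longer called; the part of the leukocyte RNA and mitochondrial share of those libraries was not tested.

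cyp17a2, the teleost copy known in fish for hydroxylase activity with little lyase activity, was lower at both concentrations. It ranged from 9.69 to 36.3 CPM in the DMSO libraries (median 25.2), from 5.47 to 12.6 CPM at 3 nM (median 8.08) and from 5.69 to 16.4 CPM at 10 nM (median 10.2). DMSO replicate 2 was the one control inside the exposed range, and 5 of 6 libraries at 3 nM and 3 of 6 at 10 nM were below it. The mean was 24.3 ± 9.74 CPM with DMSO, 8.41 ± 2.3 CPM at 3 nM and 10.5 ± 4.06 CPM at 10 nM (SD, n = 6 each). The log2 fold change was -1.53 at 3 nM (SE 0.3, 95% interval -2.16 to -0.89, adjusted p = 0.0394) and -1.2 at 10 nM (SE 0.3, 95% interval -1.83 to -0.57, adjusted p = 0.0217) by edgeR. The 3 nM call was lost without any one of DMSO replicates 1, 3, 4, 5 and 6, 3 nM replicates 1, 3, 4, 5 and 6 or 10 nM replicate 3 (adjusted p 0.0508 to 0.126), and the 10 nM call without DMSO replicate 6 (0.0527) or 10 nM replicate 5 (0.0511). In these fits the log2 fold change stayed between -1.69 and -1.38 at 3 nM and between -1.38 and -1.05 at 10 nM. Without the 5 libraries apart the values were -1.5 at 3 nM (adjusted p = 0.145) and -0.98 at 10 nM (adjusted p = 0.187), neither called.

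**Figure D3:**
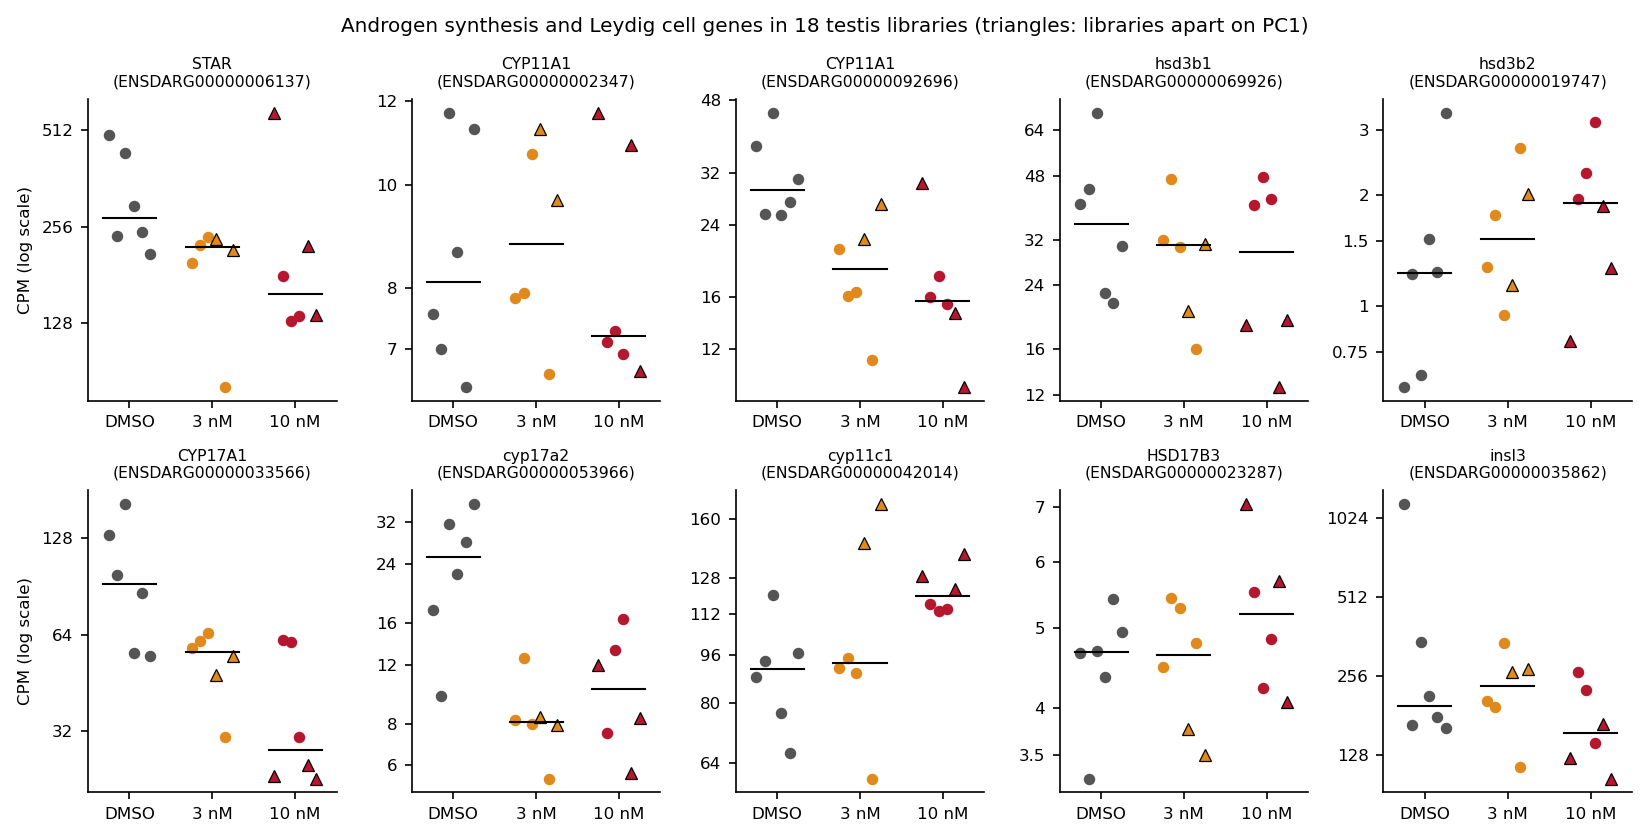
CPM (log scale, y axis) of each of the 10 identifiers in every library, by group, with black bars at the group medians and triangles for the libraries apart. CYP17A1 spans 55 to 163 CPM with DMSO and 22.8 to 61.7 CPM at 10 nM, cyp17a2 has 1 DMSO library inside the exposed range, and insl3 has 1 DMSO library at 1160 CPM.

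cyp11c1, the hydroxylase of the keto androgen and of cortisol, had a higher median at 10 nM than with DMSO but did not pass the test. It ranged from 66.4 to 120 CPM in the DMSO libraries (median 91.1), from 60.3 to 169 CPM at 3 nM (median 93.1) and from 113 to 140 CPM at 10 nM (median 119). All 6 libraries at 10 nM were above the DMSO median and 3 of 6 above the highest DMSO library; at 3 nM the libraries apart, at 146 and 169 CPM, were above it too. The mean was 90.5 ± 18.4 CPM with DMSO, 109 ± 40.7 CPM at 3 nM and 122 ± 10.7 CPM at 10 nM (SD, n = 6 each). The log2 fold change was 0.44 at 10 nM (SE 0.2, unadjusted p = 0.0404, adjusted p = 0.135) and 0.26 at 3 nM (adjusted p = 0.512), and neither passed edgeR's test. Without the libraries apart it was 0.32 at 10 nM (adjusted p = 0.293) and -0.11 at 3 nM.

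HSD17B3, which reduces androstenedione to testosterone, did not pass the test at either concentration. It ranged from 3.28 to 5.42 CPM in the DMSO libraries (median 4.67), from 3.5 to 5.43 CPM at 3 nM (median 4.63) and from 4.06 to 7.06 CPM at 10 nM (median 5.19). The groups overlapped, and the log2 fold change was 0.2 at 10 nM (95% interval -0.18 to 0.58, adjusted p = 0.448) and 0 at 3 nM (95% interval -0.38 to 0.38, adjusted p = 0.995).

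insl3 ranged from 162 to 1160 CPM in the DMSO libraries (median 197), from 115 to 342 CPM at 3 nM (median 235) and from 104 to 266 CPM at 10 nM (median 155). DMSO replicate 1 held the 1160 CPM, and the next DMSO library held 347 CPM. The groups overlapped, with 3 of 6 libraries at 10 nM below the lowest DMSO library. The log2 fold change was -1.11 at 10 nM (SE 0.44, unadjusted p = 0.0209, adjusted p = 0.0956) and -0.68 at 3 nM (SE 0.44, adjusted p = 0.459) by edgeR, while DESeq2 gave -1.13 with an adjusted p of 0.044 at 10 nM. One library decided these values: without DMSO replicate 1 the log2 fold change was -0.32 at 10 nM (adjusted p = 0.453) and 0.12 at 3 nM (adjusted p = 0.865).

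No member passed the test between the concentrations. In 10 nM against 3 nM, 0 of the 10 were called by edgeR, beside 0.129% of all tested genes called in either direction and 0.00831% called lower. Of the 10, 0 had an unadjusted p under 0.05, where 2830 of all 24053 tested genes did. DESeq2 called 0 of the 10 and 2.91% of all genes. The log2 fold changes ran from -0.5 for CYP17A1 (95% interval -1.15 to 0.15, adjusted p = 0.608) to 0.33 for cyp17a2 (95% interval -0.3 to 0.95, adjusted p = 0.77). In the test for any difference among the 3 groups, which called 4.54% of all genes, cyp17a2 (adjusted p = 0.0116) and CYP17A1 (adjusted p = 0.0316) passed and CYP11A1 (ENSDARG00000092696) did not (adjusted p = 0.0578). In no comparison did a member's groups lie wholly apart in CPM. At 10 nM 3.2% of all tested genes lay wholly below DMSO and 2.93% wholly above, at 3 nM 0.707% and 1.03%, and in 10 nM against 3 nM 0.249% lay wholly below the 3 nM libraries and 0.54% wholly above.

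The balance of cyp11c1 and CYP17A1 moved at 10 nM. Within a library, the log2 ratio of cyp11c1 counts to CYP17A1 counts (0.5 added to each) compares both in the same RNA, whatever the scaling. It ran from -0.57 to 0.82 in the DMSO libraries (-0.03 ± 0.56, SD, n = 6), from 0.47 to 1.62 at 3 nM (0.99 ± 0.51, SD, n = 6) and from 0.89 to 2.62 at 10 nM (1.84 ± 0.77, SD, n = 6). All 6 libraries at 10 nM were above the highest DMSO library, and 3 of 6 at 3 nM. The 10 nM mean was 1.87 above that of DMSO, with p = 0.00216 in a two-sided exact permutation test, the smallest that 6 against 6 can give, and an adjusted p of 0.026 over the 12 ratios tested. At 3 nM the difference was 1.02 (exact permutation p = 0.0152, adjusted p = 0.182). The ratio compares how 2 genes changed and does not show that either stayed the same. Like the other tests, the 12 ratios were chosen with earlier results of these data known.

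That was the only one of the 12 ratios called at 10 nM. At 3 nM 0 of 12 were called by this exact permutation test, and 1, the same ratio, had an unadjusted p under 0.05. The count at 3 nM depended on single DMSO libraries. Without DMSO replicate 1, the library with the high insl3 value, 3 ratios were called lower at 3 nM. They were star, cyp11a1 and cyp17a2 to insl3 (adjusted p = 0.026 each by the same test). Without DMSO replicate 6 the cyp11c1 to CYP17A1 ratio was called at 3 nM (1.19, adjusted p = 0.026). The adjusted p of the 10 nM ratio rose to between 0.0519 and 0.104 without any one of the 6 DMSO libraries or of 10 nM replicates 1, 5 and 6, while the difference stayed between 1.72 and 2.06. Without the 5 libraries apart the difference was 1.26 at 10 nM (3 against 6 libraries, exact permutation p = 0.0238, adjusted p = 0.286). There 3 of 3 libraries remained above the highest DMSO library. The smallest p possible in that setting is 0.0119. Over 12 ratios it adjusts to 0.143, or to less where other ratios also have a small p. The next ratio, cyp11c1 to insl3, differed by 1.2 at 10 nM (exact permutation p = 0.0173, adjusted p = 0.104). That difference was 0.79 to 1.38 when one library was left out. Without the 5 libraries apart it was 0.78 (exact permutation p = 0.298).

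**Figure D4:**
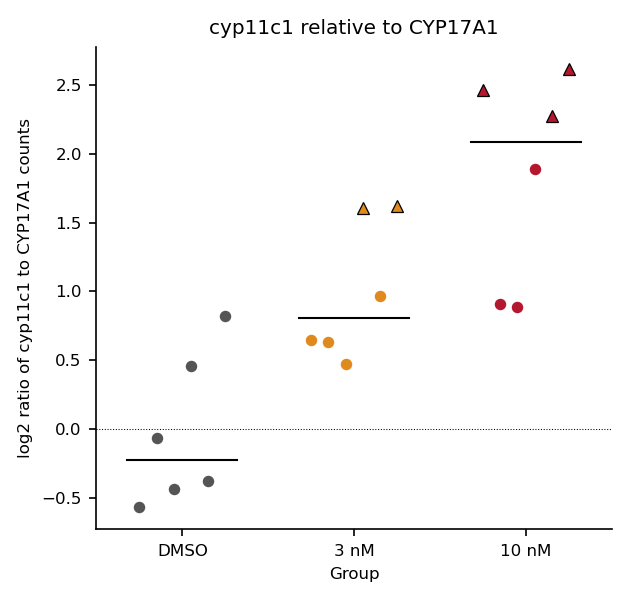
Log2 ratio of cyp11c1 to CYP17A1 counts within each of the 18 libraries (y axis), by group, with black bars at the group medians, a dotted line at 0 and triangles for the libraries apart. The 10 nM libraries lie between 0.89 and 2.62, all above the highest DMSO library at 0.82, and the 3 nM libraries between 0.47 and 1.62.

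Single libraries were low or high for many members at once. 3 nM replicate 5 was the lowest of its group for 8 of the 10 members, where it was the lowest for 12.3% of all tested genes, and its median member lay 1.19 below the DMSO mean on the log2 scale. 10 nM replicate 6 was the lowest of its group for 5 members (12.1% of all genes), with a median of -1.02. DMSO replicate 3 was the highest of its group for 5 members (20.4% of all genes), with a median of 0.48. 3 nM replicate 5 was not among the libraries apart, and 10 nM replicate 6 was.

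**Figure D5:**
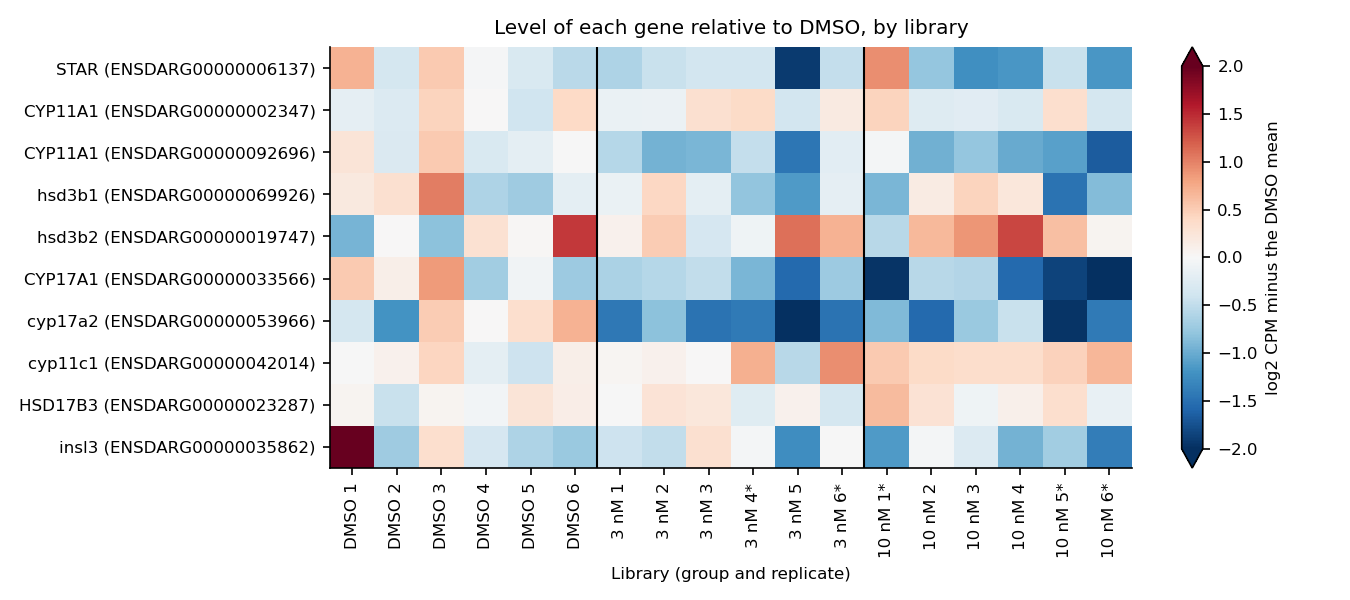
Log2 CPM of the 10 identifiers (rows) in the 18 libraries (columns), each minus the gene's DMSO mean, with the colour scale clipped at 2 in either direction and an asterisk on each library apart. 3 nM replicate 5 is low across 8 of 10 rows, and the CYP17A1 and cyp17a2 rows are low in most exposed libraries.

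Around the members, 11 calls fell on the 70 tested entries of 6 lists of other pathway genes at 10 nM, where 10.8% of all tested genes were called, and most lists held 1 or 2. These lists were chosen with earlier results of the same data known. Of 16 genes that supply cholesterol to the mitochondrion, 1 rose and 1 fell, with a median log2 fold change of 0.05. The one that fell was ldlra, a low-density lipoprotein receptor (-0.86, adjusted p = 0.0402), and the one that rose was a low NPC2 copy (ENSDARG00000096979, 2.45, adjusted p = 0.0222), a lysosomal cholesterol carrier. Neither was called without the 5 libraries apart (-0.62 and 0.56). The other NPC2 identifier (ENSDARG00000090912) had a DMSO median of 78.2 CPM, against 1.13 CPM for the low copy. It was 0.71 at 10 nM and not called by edgeR (adjusted p = 0.157).

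Of 7 genes listed as electron donors of the steroidogenic P450 enzymes, matched from 9 names, 1 rose at both concentrations. The 7 were fdx1, fdx1b, FDX2, FDXR, CYB5A, cyb5b and H6PD. Whether each of them serves these enzymes was not tested. CYB5A, a cytochrome b5 that in mammals raises the lyase activity of CYP17A1, ranged from 23.9 to 44.8 CPM with DMSO, from 97.9 to 375 CPM at 3 nM and from 348 to 922 CPM at 10 nM. No exposed library overlapped the controls. Its log2 fold change was 4.32 at 10 nM (SE 0.35, adjusted p = 1.39e-06) and 2.63 at 3 nM (SE 0.33, adjusted p = 0.000451) by edgeR, and 3.63 at 10 nM without the libraries apart (adjusted p = 1.13e-06). fdx1, a ferredoxin, did not pass at 10 nM by edgeR (0.4, adjusted p = 0.0506) and passed by DESeq2 (0.38, adjusted p = 0.0297). Another ferredoxin of this list, fdx1b, was 0.05 at 10 nM (adjusted p = 0.922) and 0.05 at 3 nM (adjusted p = 0.943) by edgeR. Which of the ferredoxins serves CYP11A1 in these testes was not tested.

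Of 15 tested genes of gonadotropin and cAMP signalling, 1 was called higher at 10 nM and 0 lower by edgeR and by DESeq2. By edgeR, 4 were lower and 2 higher at an unadjusted p under 0.05, which 7930 of all 24053 tested genes passed. The median of the 15 was -0.39, and -0.11 without the libraries apart. The riser was prkacab, a catalytic subunit of protein kinase A (0.58, adjusted p = 0.0333), at 0.32 and not called once the libraries apart were left out. lhcgr, the receptor for luteinizing hormone, ranged from 1.66 to 3.75 CPM with DMSO, from 1.11 to 2.22 CPM at 3 nM and from 0.194 to 2.99 CPM at 10 nM. Its groups overlapped, and its log2 fold change at 10 nM was -0.77 (adjusted p = 0.21).

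Of 11 steroidogenic transcription factors, 2 rose at 10 nM and none fell, with a median of 0.32. NR0B1, an orphan nuclear receptor that in mammals represses steroidogenic genes, ranged from 5.58 to 12.3 CPM with DMSO, from 10.3 to 16.1 CPM at 3 nM and from 12.5 to 21.4 CPM at 10 nM. Every 10 nM library was above the highest DMSO library. Its log2 fold change was 0.9 at 10 nM (SE 0.19, adjusted p = 0.0109) and 0.65 at 3 nM (adjusted p = 0.185) by edgeR. The 10 nM call held when any one library was left out (0.79 to 1.04) and without the libraries apart (1.01, adjusted p = 0.0362). CEBPB, a factor also active in macrophages, rose by 2.63 at 10 nM (adjusted p = 0.00376), with 0.98 and an adjusted p of 0.0237 without the libraries apart. A further factor was called in each of 2 alternatives: NR5A2, a nuclear receptor, by DESeq2 (0.6, adjusted p = 0.0427; 0.62 and 0.0731 by edgeR), and GATA6 without the libraries apart (0.66, adjusted p = 0.0327; 0.32 and 0.365 with all 18).

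Of 16 other steroid-converting enzymes, 3 rose and 1 fell at 10 nM, with a median of 0. hsd17b2, which oxidises testosterone and estradiol to less active forms, fell by 0.6 on the log2 scale (adjusted p = 0.0349). That call was lost in 8 of the 18 fits with one library left out. The risers were sult2st1, a sulfotransferase (1.55, adjusted p = 0.0177), hsd20b2, an enzyme of cortisol breakdown in zebrafish (0.86, adjusted p = 0.0225), and cyp21a2 (2.96, adjusted p = 0.0351). cyp21a2 rested on 10 nM replicate 1, without which it was 0.62 and not called (adjusted p = 0.319). None of these 4 was called without the libraries apart, where hsd17b2 was -0.39, sult2st1 0.36, hsd20b2 0.6 and cyp21a2 0.86. Of 5 tested genes of the relaxin family outside the members, insl5a rose at 10 nM (1.16, adjusted p = 0.0417), and was 0.56 and not called without the libraries apart. At 3 nM, CYB5A was the only gene called over these 6 lists.

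Markers of the cells that the testis holds moved unevenly beside the members. Of 8 Leydig cell markers outside the members, 1 rose at 10 nM and none fell, with a median of 0.07, and their summed level was 160 to 325 CPM with DMSO, 180 to 415 CPM at 3 nM and 219 to 299 CPM at 10 nM. The riser was PDGFRA, a growth factor receptor of stromal and Leydig precursor cells (1.41, adjusted p = 0.0229), at 0.31 and not called once the libraries apart were left out. The list also held igf3, an insulin-like growth factor of the fish gonad. Which cells its RNA came from was not tested, so its values are not read as a Leydig cell change. The median of the 8 markers includes igf3. igf3 ranged from 0.567 to 4.29 CPM with DMSO, from 3.61 to 11.2 CPM at 3 nM and from 0.84 to 13.3 CPM at 10 nM. Its log2 fold change was 1.59 at 10 nM (adjusted p = 0.0861) and 1.56 at 3 nM (adjusted p = 0.286) by edgeR, and at 10 nM it was called by DESeq2 (1.55, adjusted p = 0.0395) and without the libraries apart (2.34, adjusted p = 0.0461). HSD11B2, which oxidises the product of cyp11c1 to the keto androgen, was 0 at 10 nM (adjusted p = 0.994). It was also on the list of other steroid-converting enzymes. Its DMSO median was 113 CPM, where that of the summed Leydig cell markers was 226 CPM, so the sum rests largely on HSD11B2. Of 9 Sertoli cell markers, 2 rose, CLU (2.82) and krt18a.1 (1.05), and 1 fell, inha, the inhibin alpha subunit (-1.06, adjusted p = 0.0417). None of these 3 was called without the libraries apart, where they were 1.16, 0.7 and -0.51, and DESeq2 also called amh lower (-0.79, adjusted p = 0.0218; -0.77 and 0.0593 by edgeR). Of 8 germ cell markers none was called by edgeR or DESeq2, 0 were higher and 1 lower at an unadjusted p under 0.05, and the median was -0.1.

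Of 7 leukocyte markers 3 rose at 10 nM, lyz (5.78), ptprc (1.17) and CORO1A (0.96), and the median was 0.96. Without the libraries apart lyz was still called (2.23, adjusted p = 0.00261), ptprc was 0.7, CORO1A was -0.01 and the median of the list was -0.01. Of 9 smooth muscle and connective tissue markers 1 fell, a TAGLN identifier (ENSDARG00000045408, -1.3, adjusted p = 0.0241; -1.65 and 0.0651 without the libraries apart), and PDGFRA, also on this list, rose. DESeq2 called 3 of the 9 lower, adding acta2 (-0.93, adjusted p = 0.0216) and DES (-0.63, adjusted p = 0.0229). At 3 nM all 9 had log2 fold changes below 0, with a median of -0.66, 4 of them at an unadjusted p under 0.05, 0 called by edgeR and 1, the same TAGLN identifier, by DESeq2 (-1.26, adjusted p = 0.0218). Their summed level was 337 to 1060 CPM with DMSO, 214 to 471 CPM at 3 nM and 327 to 1330 CPM at 10 nM. Of 4 intestine markers 2 rose, CDH17 (3.55) and VIL1 (1.45), which were 0.05 and -0.06 without the libraries apart. At 3 nM the median of the 4 was 2.45, and 2.91 without the libraries apart, with 0 called by edgeR or DESeq2 and FABP6 (4.3) and FABP2 (3.73) at an unadjusted p under 0.05. The summed intestine markers reached 163 CPM in 3 nM replicate 1, which is not among the libraries apart, against 5.66 to 7.71 CPM in the other 3 nM libraries and 4.84 to 8.82 CPM with DMSO. Without that library cyp17a2 at 3 nM was -1.52 (adjusted p = 0.0861). They reached 116 and 145 CPM in 10 nM replicates 1 and 5 and 4.37 to 16.9 CPM in the other 10 nM libraries. Neither the 6 vessel nor the 5 tested ovary markers held a called gene at 10 nM by edgeR. At an unadjusted p under 0.05, 1 vessel marker was lower and 2 ovary markers were higher. All 5 ovary markers had log2 fold changes above 0 at both concentrations. The ovary marker ZAR1 at 10 nM was 1.2 (adjusted p = 0.11). It was called without the libraries apart (0.91, adjusted p = 0.0118) and without 3 nM replicate 4 alone (adjusted p = 0.00475). The summed ovary markers reached 220 CPM in 3 nM replicate 4. They were 38.3 to 56.6 CPM in the other 3 nM libraries, 28.4 to 37.4 CPM with DMSO and 41.3 to 77.9 CPM at 10 nM. The part of these cell types in the members' values was not tested.

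By pattern over the 18 libraries, measured as the root mean square difference of centred log2 CPM, the gene nearest to STAR was the changed CYP11A1 identifier (ENSDARG00000092696), at 0.41, where STAR itself had an SD of 0.68. DMC1, a meiotic recombinase, also lay at 0.41 and LFNG at 0.43. Nearest to CYP11A1 (ENSDARG00000092696) were tmem119b (0.35), stab1 (0.38) and col18a1a (0.39). The 3 nearest to CYP17A1, whose SD was 0.79, were CNN1, a smooth muscle calponin (0.46), zgc:112294 (0.47) and FYN (0.48). For cyp17a2 they were ITGBL1 and hs3st3b1b (both 0.51) and CSGALNACT1 (0.53). For cyp11c1, with an SD of 0.38, LAMP2 (0.19) and wfdc2 (0.22) came first, and for insl3 it was KCNJ5 (0.5). These distances describe the libraries and carry no test.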

How the data were processed

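The values are whole-number counts per Ensembl gene, deposited by the authors without normalization, 1 file per library. FastQC, the aligner STAR, HTSeq, edgeR and the build GRCz10 are listed, without versions, in the submitters' processing notes. Per the labels' protocols, total RNA went into a stranded library kit and was read for 50 bases from one end. The sources used here do not give the strand setting of the counting. Symbols came from a gene table that named 27000 of the 35117 identifiers.

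Counts were analysed in R 4.3.3 with edgeR 4.0.16 (filterByExpr, TMM scaling, robust quasi-likelihood F-test, 1 fit of all 18 libraries, no covariate). The fit tested 24053 genes, and a call was an adjusted p under 0.05. SEs were taken from the log2 fold change and the F statistic, and intervals cover 95%. DESeq2 1.42.0, other scalings and filters, a replicate block, 2-group fits and leaving out each library were alternatives, and leaving out the 5 libraries apart was added after seeing the data. Log2 ratios between members were compared by exact permutation. The scripts were tested on simulated data. No 2 libraries of a group held the same values: chi-square tests of their counts gave at least 18.5 per degree of freedom. Levels are not compared between genes, because gene lengths were not used here.

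The members, the lists and the tests were chosen with earlier results of these data known. Genes named outside the members are those of each list that passed the test, or the 2 with the smallest p, and the 3 genes most like a member. A few of these are left unnamed to keep to the members. Further genes were named after their values were seen: fdx1, fdx1b, lhcgr, mc2r, mrap, NR5A2, GATA6, igf3, HSD11B2, amh, acta2, DES, FABP2 and FABP6. The same holds for FDX2, FDXR, cyb5b, H6PD and the other NPC2 identifier (ENSDARG00000090912). The methylation tables were not analysed here, since their regions carry no gene names. No sequences are shown, because none were in the sources used here.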

Additional observations from a re-analysis of the deposited data

Results flagged for a closer look

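In 4 of the 33 groups of 6 libraries examined for one value standing far from the rest, a single library did so. For normally distributed values chance gives about 1 in 20 groups, or 1.65. The CPM were examined without a log, so this rate is only a rough guide. STAR in 3 nM replicate 5 was 80.9 CPM, below the nearest library of its group at 197 CPM. STAR in 10 nM replicate 1 was 580 CPM, above the nearest at 222 CPM, in the library with 316 counts of cyp21a2. hsd3b2 in DMSO replicate 6 was 3.35 CPM, above the nearest at 1.52 CPM. insl3 in DMSO replicate 1 was 1160 CPM, above the nearest at 347 CPM.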

How the results depend on the processing

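Among the members, CYP17A1 at 10 nM kept its direction in each of the alternatives run and lost its call without the 5 libraries apart. The number of genes called at 10 nM against DMSO, 2609, became 684 with the replicate block, 1699 with only the compared groups in the fit, 4626 with DESeq2, 468 without the 5 libraries apart and 826 to 3855 when one library was left out. At 3 nM against DMSO the 50 became 26 with the replicate block, 311 with DESeq2 and 25 to 55 when one library was left out. At 10 nM against 3 nM the 31 became 0 with the replicate block, 0 with only those groups, 701 with DESeq2, 0 without the libraries apart (1663 at an unadjusted p under 0.05) and 0 to 355 when one library was left out. For any difference the 1091 became 184, 3213, 171 and 477 to 1609 with the block, DESeq2, without the libraries apart and when one library was left out. The 3 members called lower at 10 nM became 1 with the replicate block, 1 without the libraries apart and 1 to 4 when one library was left out, and the 1 at 3 nM became 0 with the block and 0 to 1. Ratios called at 10 nM went from 1 to 0 without the libraries apart and were 0 to 1 when one library was left out, and at 3 nM they were 0 to 3. The cyp11c1 to CYP17A1 difference of 1.87 at 10 nM was 1.26 without the libraries apart and 1.72 to 2.06 when one library was left out, and that of 1.02 at 3 nM was 0.89 to 1.19. CORO1A and VIL1 at 10 nM turned to -0.01 and -0.06 without the libraries apart. Of the list genes called at 10 nM, CYB5A, CEBPB, NR0B1, sult2st1, CLU, krt18a.1 and lyz kept the call whichever library was left out. In these 18 fits the call was lost in 2 for hsd20b2 and TAGLN (ENSDARG00000045408). It was lost in 3 for the low NPC2 copy and PDGFRA, 6 for cyp21a2 and 7 for prkacab and ptprc. For hsd17b2, insl5a, CORO1A and CDH17 it was lost in 8, and for ldlra, inha and VIL1 in 10, 11 and 13. Fewer libraries entered the leave-out fits, and otherwise the cause of these changes was not tested.

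Between libraries with the same replicate number, the correlations of their deviations ran from -0.49 to 0.34, and 6 of 18 were above 0.1. For 1 of 18 libraries, the best correlated library in both other groups carried its own number. Whether the replicate numbers mark pairs was not tested. With the replicate block the 10 nM log2 fold changes were -1.42 for CYP17A1 (adjusted p = 0.0103), -0.9 for CYP11A1 (ENSDARG00000092696; 0.051) and -1.23 for cyp17a2 (0.057), and at 3 nM cyp17a2 was -1.49 (0.197).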
